A study of Cucumis sativus with 2 samples.

Results

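Genes that build the glucan and xylan polymers of the plant cell wall were followed on the ventral and dorsal sides of bending cucumber fruit, Cucumis sativus, sampled at 2 days after anthesis. The members were taken from the deposited read table by the symbol or description of their Arabidopsis homologue, namely cellulose synthases (CESA), cellulose synthase-like genes (CSL), COBRA and KORRIGAN genes, irregular xylem (IRX) genes, callose synthases (GSL), glycogenin-like (PGSIP) genes and radial swelling (RSW) genes. This gave 75 genes of 20700, spread over 45 Arabidopsis loci and all 7 chromosomes, with 19 on chromosome 2. Of these, 61 had at least 20 reads over both libraries and were measured, and 14 had fewer, at most 12 reads. Those 14 are a CSLB set of 4, the COBL10 pair, CSLD1, CSLD4, PGSIP5 and single copies of GSL2, GSL12, CSLG3, KOR2 and IRX4. A further 18 genes match loci of the same enzymes but are listed under other symbols, such as MRE1 for CESA3, NWS2, MUR10 and LEW2 for CESA4, CESA7 and CESA8, and TSD1 for KORRIGAN1. They are no members and are given beside them, marked as listed under another symbol. All gene names are those of Arabidopsis homologues.

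Cellulose is made at the plasma membrane by a complex of CESA proteins that move along microtubules. In Arabidopsis, CESA1, CESA3 and the CESA6-like proteins, CESA2 among them, form the complex of growing primary walls, while CESA4, CESA7 and CESA8 form that of the thick secondary walls of xylem and fibres. Xylan, the main hemicellulose of such secondary walls, is made in the Golgi by IRX proteins and their partners, and callose, a beta-1,3-glucan, is laid down at cell plates, plasmodesmata and sieve plates by the large GSL proteins. In a young fruit that grows by division and expansion, primary walls prevail, and secondary walls are mainly those of the vascular bundles.

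Each side of the fruit is represented by 1 poly(A) RNA library, and the labels do not say how many fruits it pools or whether both sides were taken from the same fruit. The comparison asks which transcripts differ between the sides. Counted reads came to 21863715 ventrally and 11893394 dorsally. With 1 library per side no test between the sides and no replicate error can be given, and no difference has a replicate check. Ratios are reads in the ventral over reads in the dorsal library after scaling by the trimmed mean of M values (TMM), with an effective depth ratio of 2.13, ventral over dorsal. Brackets give the exact 95% counting interval on the log2 scale, which covers counting error only. Genes with a ratio of 2-fold or more and an interval that excludes 1 are called ventral-high or dorsal-high, which describes these libraries only. Levels are compared between genes only as RPKM, the authors' read values per kilobase of transcript and library depth, printed as deposited and without TMM scaling. In bulk tissue, fewer cells of a type and less RNA per cell cannot be told apart.

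Of the 61 measured members, 19 (31.1%) were ventral-high, 5 (8.20%) were dorsal-high and 37 were neither. Over all 17462 measured genes these shares were 13.6% and 11.1%. The median log2 ratio was 0.38 for the members and 0.03 for all measured genes. Across all genes, however, the ratio depended on exonic length. Its median log2 value was -0.28 in the 1747 shortest genes, up to 607 bp, and then rose from -0.51 at 607 to 856 bp to 0.75 above 2849 bp, and the members had a median exonic length of 2270 bp against 1464 bp for all measured genes. With that trend removed, 11 of the 61 members were ventral-high and 7 dorsal-high, and the members' median was -0.04. Over all 17462 measured genes the counts were then 1909 (10.9%) and 1454 (8.33%). Of the 19 and 5 members first named, 10 and 4 kept their call with the trend removed. Whether the trend comes from the tissue or from the libraries was not tested, so the length-adjusted log2 ratio, with the trend removed, is given for the main lists and for the named genes whose call it changes. The adjustment turned the sign of 14 of the 61 members.

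**Figure D1:**
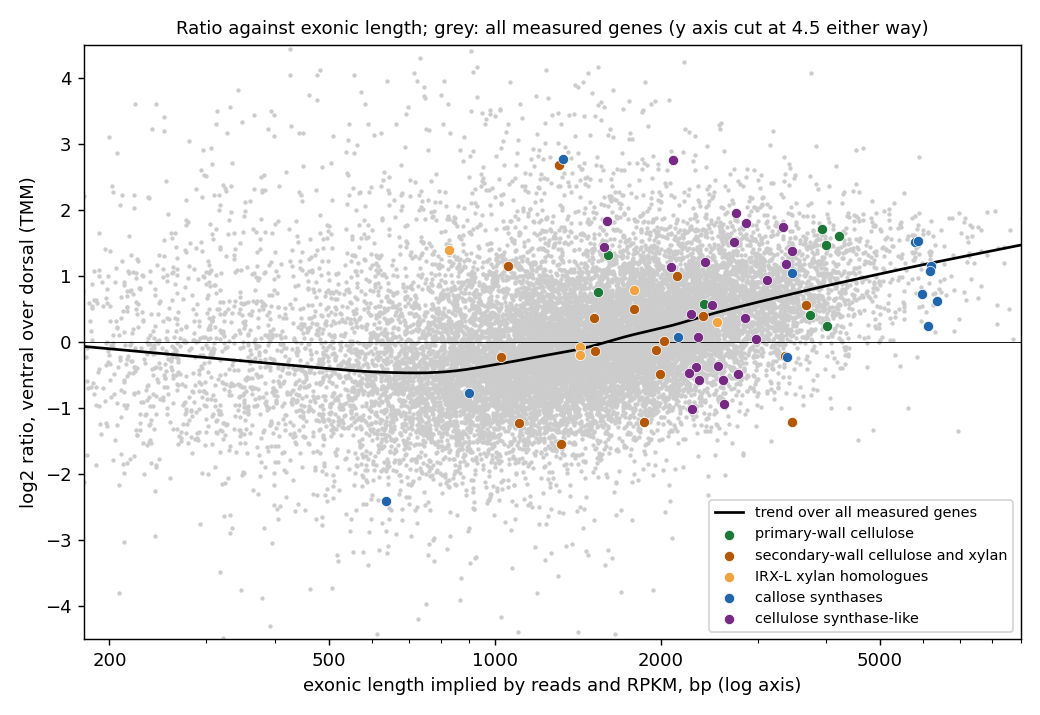
The log2 ratio of reads (ventral over dorsal, y axis) is plotted against exonic length in bp (log x axis) for all measured genes in grey and for the wall genes in colour, those listed under another symbol included. The black line is the trend over all genes. The callose synthases of over 5000 bp all lie above 0 and on both sides of the line, whereas PARVUS Csa6G487700 at 2.68 and COBL4 Csa1G039860 at -1.55 lie far from the line.

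The primary-wall cellulose genes included the most abundant cellulose genes and lay higher in the ventral library. All 5 members had log2 ratios above 0, from 0.41 to 1.71 with a median of 1.31. Of the 5, 3 (60.0%) were ventral-high, beside 13.6% of all measured genes. With the length trend removed 1 of the 5 was ventral-high, beside 10.9% of all measured genes. CESA2 (Csa6G014800, chromosome 6) had 12515 ventral and 1792 dorsal reads, which are 144 and 37.3 RPKM. It was the most abundant measured member per length in the ventral library and ranked 7 in the dorsal library, and its ratio was 3.28-fold [1.64 to 1.78]. The other CESA2 copy (Csa6G486700), with 3393 and 526 reads (36.5 and 10.2 RPKM), was 3.03-fold higher ventrally [1.46 to 1.73]. CESA1 (Csa3G878780, listed as RSW1), which is required for the primary-wall complex in Arabidopsis, had 5466 and 1934 reads (66.3 and 42.3 RPKM) and a log2 ratio of 0.41 [0.33 to 0.48]. The ventral excess was thus larger in the CESA2 copies than in CESA1, with counting intervals that did not overlap.

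CESA3, a further subunit of the primary-wall complex, is listed as MRE1. The copy Csa4G166980 had 5539 and 937 reads (63.0 and 19.2 RPKM) and was 2.77-fold higher ventrally [1.37 to 1.57], whereas the copy Csa7G428160, with 2016 and 796 reads (22.8 and 16.2 RPKM), had a log2 ratio of 0.25 [0.13 to 0.37]. The homologues of 1 subunit therefore had unlike ratios. KORRIGAN1 (Csa3G113920, listed as TSD1), a membrane endoglucanase needed for cellulose synthesis, had 7242 and 2288 reads (137 and 78.1 RPKM) and a log2 ratio of 0.57 [0.50 to 0.64], or 0.18 length-adjusted.

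COBRA is a glycosylphosphatidylinositol-anchored protein that orients cellulose deposition in expanding cells. Its copy Csa1G015710 had 1520 and 423 reads (44.9 and 22.5 RPKM) and a log2 ratio of 0.75 [0.60 to 0.91]. The weaker copy Csa4G129050 had 122 and 23 reads (3.45 and 1.18 RPKM) and was 2.49-fold higher ventrally [0.66 to 2.03]. These are the primary-wall genes with the shortest transcripts, 1537 and 1604 bp, and their length-adjusted log2 ratios were 0.79 and 1.31. For the CESA genes of 3741 to 4212 bp the adjustment was larger. The CESA2 copies came to 0.88 and 0.70, the CESA3 copies to 0.62 and -0.60, and CESA1 to -0.39, so that no primary-wall CESA gene was ventral-high once the trend was removed and CESA1 and a CESA3 copy lay below the trend.

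The secondary-wall CESA genes were low on both sides, and none was 2-fold higher ventrally. CESA4 (Csa6G088080, listed as NWS2) had 272 ventral and 87 dorsal reads (3.36 and 1.95 RPKM) and a log2 ratio of 0.55 [0.20 to 0.92]. CESA8 (Csa1G470270, LEW2) had 98 and 53 reads (1.32 and 1.29 RPKM) and a log2 ratio of -0.21 [-0.70 to 0.30]. CESA7 (Csa2G070320, MUR10) had 158 and 171 reads (2.08 and 4.04 RPKM) and was 2.31-fold higher dorsally [-1.53 to -0.89]. The 3 subunits, which act together in a complex in Arabidopsis, thus did not share a direction in these libraries. Length-adjusted log2 ratios were -0.23, -0.91 and -1.93, all below the trend.

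COBL4, the COBRA-like protein of secondary walls, is listed as IRX6 with 3 copies. The copy Csa1G039860 had 530 ventral and 726 dorsal reads (18.2 and 44.9 RPKM) and was 2.92-fold higher dorsally [-1.71 to -1.38]. It was the most abundant, on either side, of the 9 members placed in the secondary-wall list. Its length-adjusted value was -1.39. The other copies were low. Csa1G015700 had 61 and 40 reads (1.38 and 1.64 RPKM) with a log2 ratio of -0.48 [-1.08 to 0.13], and Csa4G129040 had 41 and 15 reads (1.23 and 0.84 RPKM) with 0.36 [-0.53 to 1.32]. Each of these low copies carries the identifier next to that of a COBRA copy, Csa1G015710 and Csa4G129050, whose log2 ratios were 0.75 and 1.31. How the counting treated reads shared by neighbouring or near-identical copies is not given in the sources used here.

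The 6 xylan members of the secondary-wall list had log2 ratios from -1.23 to 0.39. Of the 6, 0 were ventral-high and 2 (33.3%) dorsal-high, beside 13.6% and 11.1% of all measured genes. The highest, PGSIP1, had an interval above 0 as counted but a length-adjusted log2 ratio of 0.002 [-0.32 to 0.33]. Of 3 PARVUS copies, which are no members, 2 were ventral-high. With homologues under other symbols added, the 11 xylan genes had a median log2 ratio of 0.01, or 0.002 length-adjusted. Of the 11, 2 (18.2%) were ventral-high and 2 (18.2%) dorsal-high. The 6 cellulose genes of the secondary-wall list, counted likewise, had a median of -0.34, or -0.80 length-adjusted. IRX9, IRX10 and IRX14 belong to the complex that extends the xylan backbone. IRX9 (Csa3G736900) had 82 ventral and 90 dorsal reads (3.37 and 6.65 RPKM) and was 2.34-fold higher dorsally [-1.68 to -0.78], with a length-adjusted value of -0.95, short of 2-fold. IRX10 (Csa4G007660), with 94 and 48 reads (2.17 and 2.02 RPKM), and IRX14 (Csa6G491100), with 264 and 136 reads (7.87 and 7.32 RPKM), had log2 ratios of -0.12 [-0.64 to 0.41] and -0.14 [-0.44 to 0.17].

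In the secondary-wall list, PGSIP1 (GUX1, Csa6G483470) and PGSIP3 (GUX2, Csa2G357330) are the genes that add glucuronic acid to xylan. PGSIP1 had 301 and 108 reads (5.72 and 3.72 RPKM) and a log2 ratio of 0.39 [0.06 to 0.72], or 0.002 length-adjusted. PGSIP3, with 24 and 26 reads (0.59 and 1.14 RPKM), was 2.31-fold higher dorsally [-2.07 to -0.35], or -1.36 length-adjusted. FRA8 (listed as IRX7, Csa6G147670), needed for the end sequence of the xylan chain, had 652 and 303 reads (14.6 and 12.2 RPKM), a log2 ratio of 0.01 [-0.19 to 0.21]. PARVUS, a further gene of that end sequence, is no member by its symbol. Its copies Csa6G487700, with 150 and 11 reads (5.19 and 0.75 RPKM), and Csa3G854760, with 231 and 49 reads (9.90 and 3.83 RPKM), were 6.40-fold [1.80 to 3.71] and 2.21-fold [0.69 to 1.62] higher ventrally, or 2.84 and 1.45 length-adjusted. The copy Csa2G360840, with 91 and 50 reads (3.97 and 3.98 RPKM), had a log2 ratio of -0.23 [-0.74 to 0.30]. IRX8 (Csa3G081360, listed as LGT6) and F8H (Csa1G095020) rested on 17 and 4 (0.36 and 0.15 RPKM) and on 15 and 5 reads (0.38 and 0.23 RPKM), and were 1.99-fold [-0.62 to 3.03] and 1.41-fold [-1.04 to 2.31] higher ventrally, too few reads to show a direction at this depth.

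**Figure D2:**
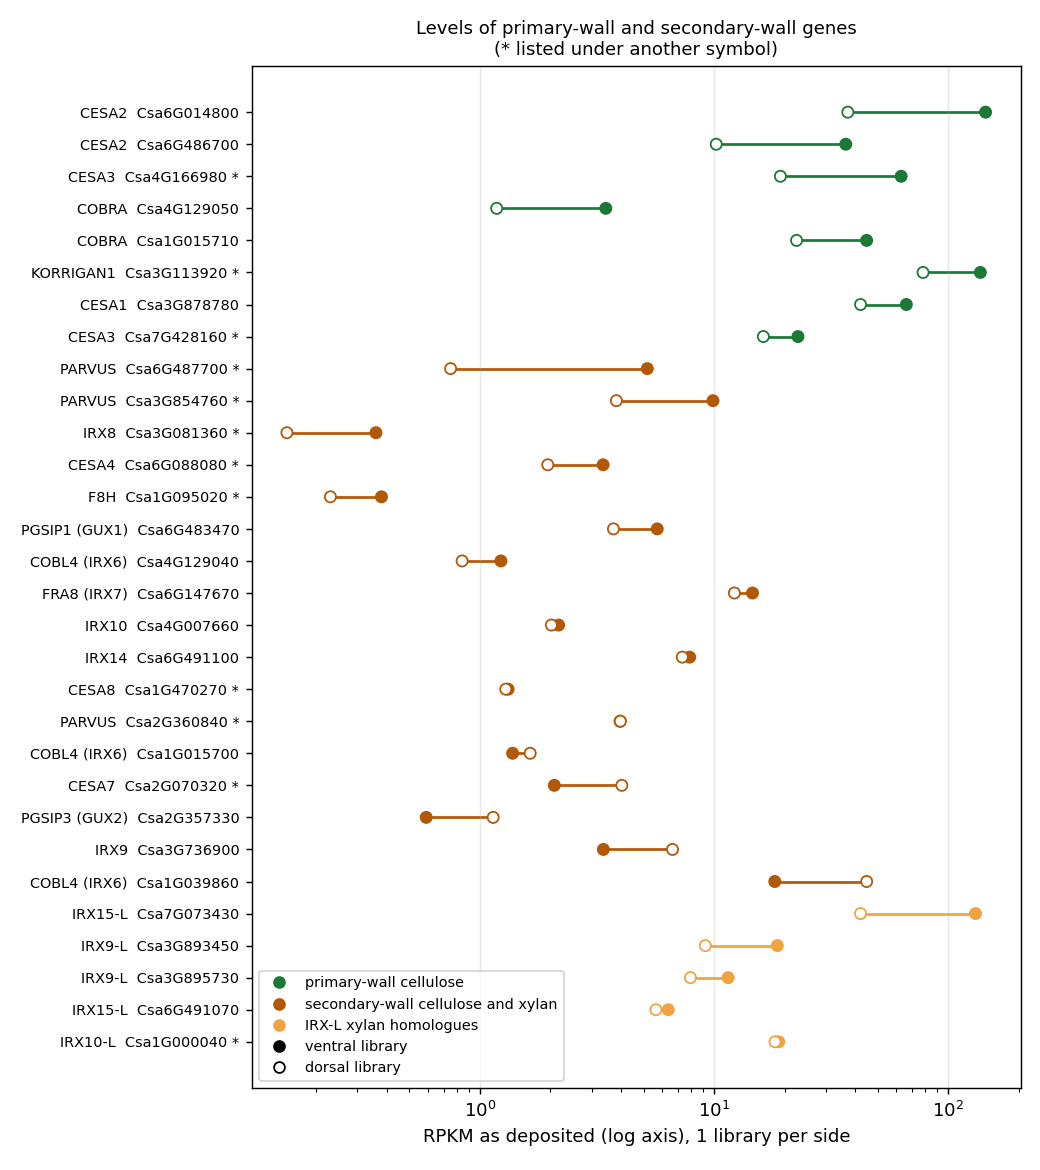
RPKM values as deposited (log x axis) are plotted for each measured primary-wall gene, secondary-wall gene and IRX-L homologue, with the ventral library as a filled and the dorsal library as an open circle joined by a line. CESA2 Csa6G014800 lies at 144 and 37.3 RPKM, while CESA4, CESA7 and CESA8 lie between 1.29 and 4.04.

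Set side by side, the 9 secondary-wall members had a median log2 ratio of -0.14, with 0 ventral-high and 3 (33.3%) dorsal-high. The 5 primary-wall members had a median of 1.31, with 3 (60.0%) and 0. Over all measured genes the shares were 13.6% and 11.1%. The difference of medians was -1.45, and -1.11 with the length trend removed. With the IRX-L genes kept apart, the lists ran from -1.55 to 0.39 and from 0.41 to 1.71, side by side as counted. With the trend removed their medians were -0.31 and 0.79, and they overlapped, running from -1.39 to 0.42 and from -0.39 to 1.31. With the homologues under other symbols added, the medians were -0.12 over 17 secondary-wall genes, of which 2 were ventral-high and 4 dorsal-high, and 1.03 over 8 primary-wall genes, of which 4 and 0 were. The ranges then overlapped also as counted, from -1.55 to 2.68 and from 0.25 to 1.71, and the difference was -1.16, or -0.87 with the trend removed. Taken alone, the homologues under other symbols had medians of 0.57 over 3 primary-wall genes and 0.52 over 8 secondary-wall genes. With the trend removed these medians were 0.18 and 0.24, so the difference between the lists was not seen in these homologues. The sign of the median of the 9 secondary-wall members depended on scaling, at 0.08 with scaling by total reads, which raises every log2 ratio by 0.21. Under it PGSIP3 and CESA7, both at -0.99, and CSLB04 Csa2G416250, at -0.80, fell short of 2-fold, whereas COBL4 at -1.33 and IRX9 at -1.01 did not. The difference between the lists does not depend on scaling.

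The CESA genes can be compared at like length, since the 5 primary-wall CESA genes have 3741 to 4212 bp and the 3 secondary-wall CESA genes 3367 to 3671 bp. The medians were 1.47 and -0.21 as counted, and 0.62 and -0.91 length-adjusted. The groups overlapped, as CESA4 at 0.55 lay above CESA1 and the weaker CESA3 copy. Summed RPKM of the primary-wall CESA genes was 333 ventrally and 125 dorsally, and that of the secondary-wall CESA genes 6.76 and 7.28. The primary-wall sum was thus 49.3 times the secondary-wall sum in the ventral library and 17.2 times in the dorsal library. Without CESA2 Csa6G014800, which made up 43.4% of the ventral primary-wall sum, these ratios were 27.9 and 12.1.

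**Figure D3:**
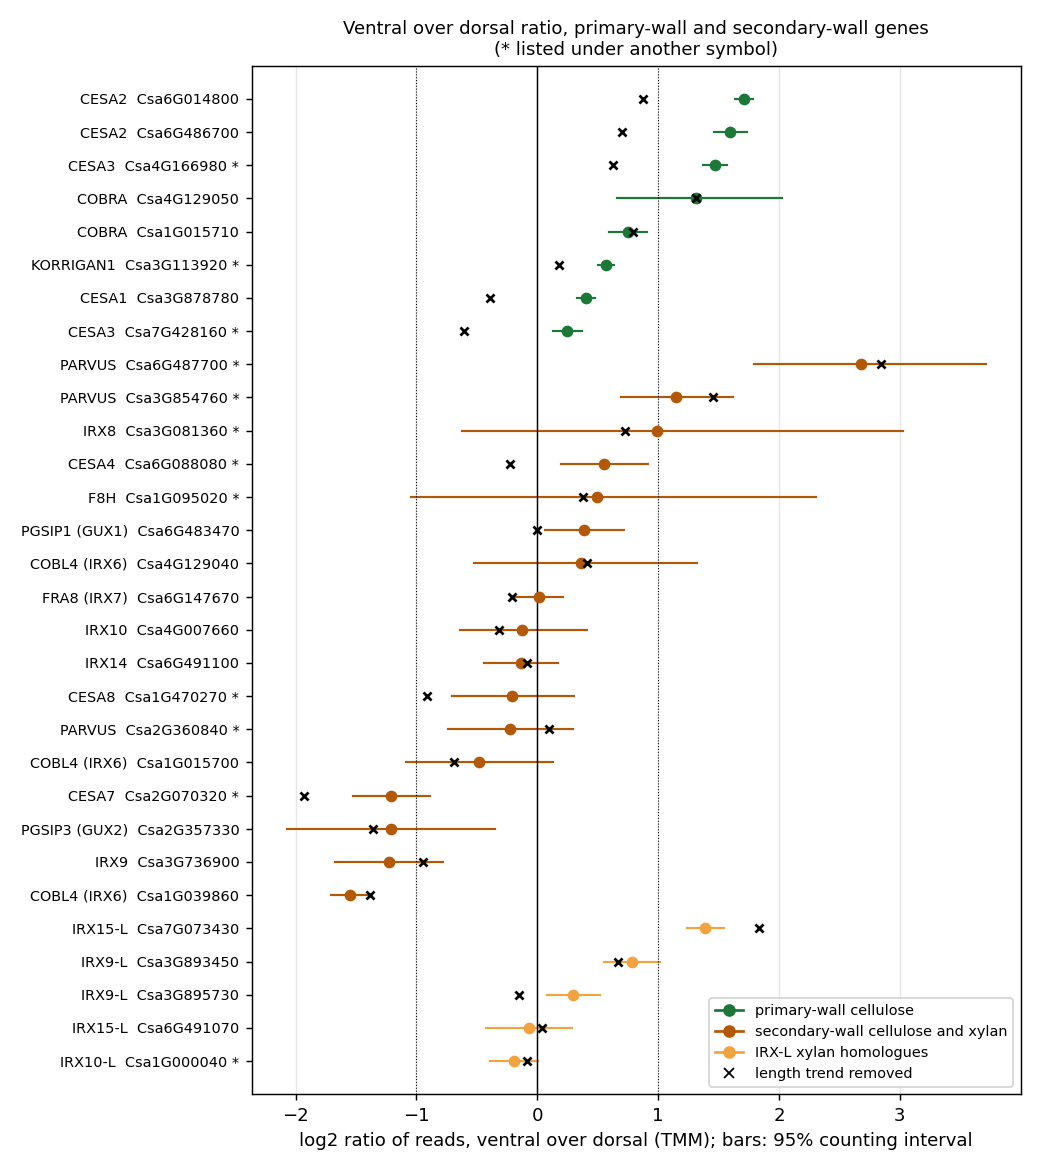
Log2 ratios of reads, ventral over dorsal, with 95% counting intervals are plotted for each primary-wall, secondary-wall and IRX-L gene, with crosses at the length-adjusted value and dotted lines at 2-fold. All 8 primary-wall genes lie right of 0, from 0.25 to 1.71, and the 17 secondary-wall genes spread from -1.55 to 2.68. Crosses move left most for the long CESA genes.

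Close relatives of the xylan genes, called IRX-L, some of which act in primary-wall xylan in Arabidopsis, were kept apart by name. IRX15-L (Csa7G073430), of a protein family needed for xylan of normal length, had 2386 ventral and 427 dorsal reads and was 2.62-fold higher ventrally [1.24 to 1.54]. At 131 and 42.2 RPKM it ranked 2 in level among the members in the ventral library, and its short transcript of 827 bp put its length-adjusted log2 ratio at 1.84. The other IRX15-L copy (Csa6G491070), with 201 and 99 reads, had a log2 ratio of -0.07 [-0.42 to 0.29]. The IRX9-L copies Csa3G893450, with 737 and 201 reads, and Csa3G895730, with 642 and 245 reads, had 0.78 [0.56 to 1.01] and 0.30 [0.08 to 0.52], and IRX10-L (Csa1G000040, listed as GUT1), with 596 and 319 reads, had -0.19 [-0.39 to 0.01]. Of these 5 genes 1 was ventral-high. Counting the 4 IRX-L members as secondary-wall genes gave that list a median of -0.07 and a difference of medians of -1.39. IRX15-L Csa7G073430 would then be its only ventral-high member, at 1.39, inside the primary-wall range. It would also be its most abundant member in the ventral library.

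Of the other PGSIP genes, PGSIP7 (Csa3G020040) had 99 ventral and 9 dorsal reads, 5.16-fold higher ventrally [1.38 to 3.54]. A short PGSIP6 copy (Csa2G078080) had 24 reads and 1 read, a ratio of 11.3-fold with a wide interval [0.88 to 8.85], while the longer copy (Csa2G078050), with 358 and 129 reads, had a log2 ratio of 0.38 [0.09 to 0.68]. In Arabidopsis, PGSIP6 acts on sphingolipids and not on xylan. PGSIP2 (Csa6G338140), which was placed in neither wall list, had 435 and 116 reads and a log2 ratio of 0.81 [0.52 to 1.12].

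Callose synthase genes lay higher in the ventral library as counted but not once length was taken into account. Of 14 members 12 were measured, and the median log2 ratio was 0.67. Of the 12, 5 (41.7%) were ventral-high and 1 (8.33%) was dorsal-high, beside 13.6% and 11.1% of all measured genes. With the trend removed the median was -0.28 and the counts 1 and 1 of 12, beside 10.9% and 8.33% of all genes. The 6 members with transcripts of at least 5000 bp all had log2 ratios above 0, from 0.25 to 1.51, and length-adjusted values from -0.94 to 0.37.

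GSL12 (Csa1G605110), whose Arabidopsis homologue CALS3 makes callose at plasmodesmata, had 4850 ventral and 1023 dorsal reads (35.6 and 13.5 RPKM) and was 2.22-fold higher ventrally [1.06 to 1.25]. Its length-adjusted value was -0.04. GSL6 (Csa7G429550), the homologue of the cell plate enzyme CALS1, had 1364 and 305 reads (10.0 and 4.05 RPKM) and was 2.10-fold higher ventrally [0.89 to 1.25], with a length-adjusted value of -0.12. GSL8 (Csa1G002710), needed for cytokinesis and for callose at plasmodesmata, had 3040 and 862 reads (23.1 and 11.8 RPKM) and a log2 ratio of 0.73 [0.62 to 0.84]. Once adjusted none of these 3 lay above the trend, with GSL8 at -0.44.

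GSL1 (Csa1G073850), with 926 and 152 reads (7.26 and 2.15 RPKM), was 2.86-fold higher ventrally [1.27 to 1.77]. GSL5 (Csa6G128000, listed as PMR4), the enzyme of wound and papillary callose, had 1562 and 254 reads (12.1 and 3.55 RPKM) and was 2.88-fold higher there [1.34 to 1.73]. Their length-adjusted values of 0.37 and 0.38 were the highest among the long callose synthase genes. GSL7 (Csa7G236800), the homologue of the sieve plate enzyme CALS7, had 858 and 263 reads (6.12 and 3.38 RPKM) and a log2 ratio of 0.61 [0.41 to 0.82], and GSL4 (Csa4G621160) had 364 and 144 reads (2.70 and 1.93 RPKM) with 0.25 [-0.04 to 0.53]. The GSL2 copies, listed as GLS2, are homologues of the pollen wall enzyme CALS5. They were low, with 168 and 92 reads (2.25 and 2.24 RPKM) for Csa2G302170, a log2 ratio of -0.22 [-0.60 to 0.16], 101 and 23 (1.32 and 0.55 RPKM) for Csa2G302250, 2.06-fold higher ventrally [0.38 to 1.76] but 0.31 length-adjusted, and 18 and 8 (0.38 and 0.29 RPKM) for Csa2G302180, 0.08 [-1.20 to 1.49].

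The widest ratios of the callose list were in gene models much shorter than a callose synthase. GSL10 (Csa1G605100, 1330 bp) had 217 ventral and 15 dorsal reads (7.40 and 0.97 RPKM), 6.78-fold higher ventrally [2.01 to 3.62], or 2.92 length-adjusted. GSL7 (Csa5G420330, 635 bp) had 6 and 15 reads (0.43 and 1.93 RPKM), 5.33-fold higher dorsally [-4.07 to -0.97], or -1.95 length-adjusted. GSL3 (Csa7G429560, 899 bp) had 1038 and 834 reads, at 52.4 and 75.8 RPKM the highest level per length of any member in the dorsal library, with a log2 ratio of -0.78 [-0.91 to -0.64]. GSL10 and GSL3 carry identifiers next to those of GSL12 (Csa1G605110) and GSL6 (Csa7G429550). Whether neighbouring models are pieces of the same gene was not tested, since no genome sequence was used here.

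**Figure D4:**
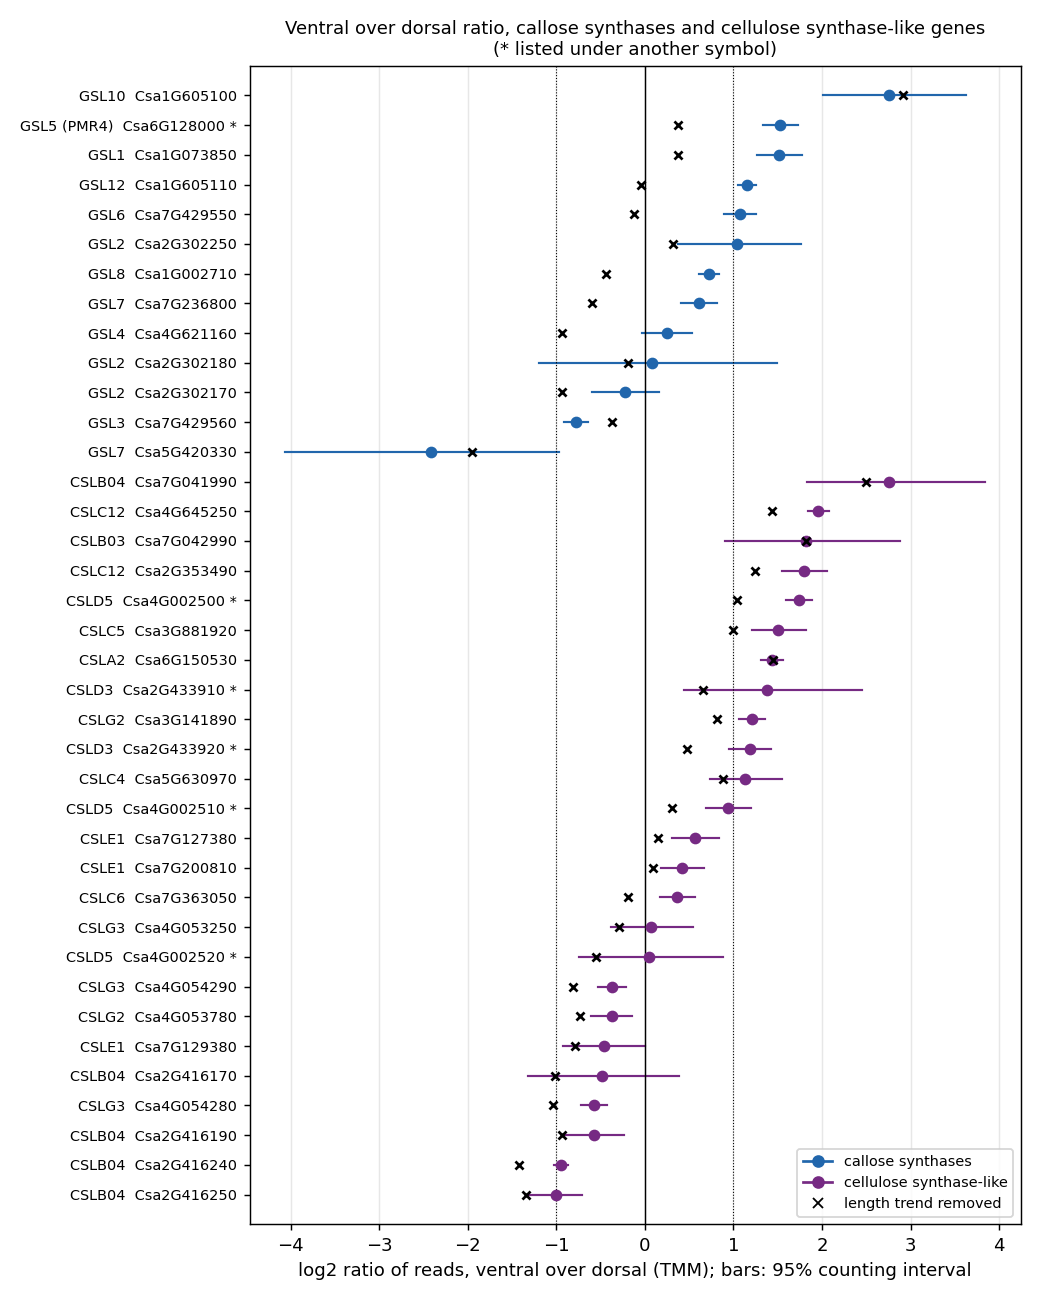
Log2 ratios of reads, ventral over dorsal, with 95% counting intervals are plotted for the measured callose synthases and cellulose synthase-like genes, with crosses at the length-adjusted value and dotted lines at 2-fold. Crosses of the long callose synthases fall between -0.94 and 0.38. CSLC12 and CSLA2 stay right of 1.

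CSL proteins are relatives of CESA that make hemicellulose backbones. Of 27 CSL members 20 were measured, and the median log2 ratio was 0.39. Of the 20, 8 (40.0%) were ventral-high and 1 (5.0%) was dorsal-high, beside 13.6% and 11.1% of all measured genes. With the length trend removed the counts were 5 and 4 of 20, beside 10.9% and 8.33%, and the median -0.05. The families went different ways.

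CSLC genes, which make the glucan backbone of xyloglucan, a primary-wall polymer, all had ratios above 1. Of 5 genes 4 (80.0%) were ventral-high, beside 13.6% of all measured genes, with a median log2 ratio of 1.51. With the length trend removed 2 of the 5 were, beside 10.9%. CSLC12 (Csa4G645250) had 5187 ventral and 626 dorsal reads (85.9 and 18.7 RPKM) and was 3.89-fold higher ventrally [1.84 to 2.08]. The other CSLC12 copy (Csa2G353490), with 1069 and 144 reads, was 3.48-fold higher [1.55 to 2.06], and the pair was ventral-high also when adjusted for length, at 1.44 and 1.24. CSLC5 (Csa3G881920), with 636 and 105 reads, and CSLC4 (Csa5G630970), with 299 and 64 reads, were 2.84-fold [1.21 to 1.82] and 2.19-fold [0.74 to 1.54] higher, and 0.99 and 0.89 length-adjusted. CSLC6 (Csa7G363050), with 764 and 278 reads, had a log2 ratio of 0.37 [0.17 to 0.57].

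CSLA2 (Csa6G150530), which makes the backbone of glucomannan, had 3657 and 635 reads (105 and 32.9 RPKM) and was 2.70-fold higher ventrally [1.31 to 1.56]. Its length-adjusted value was 1.45, as its transcript of 1578 bp lies where the trend is near 0. The CSLD members, of a family known for tip growth and cell division, had too few reads to be measured. Under other symbols, CSLD5 (Csa4G002500, listed as SOS6), with 3269 and 459 reads, was 3.34-fold higher ventrally [1.60 to 1.88] and 1.04 when adjusted. The CSLD5 copies Csa4G002510, with 650 and 159 reads, and Csa4G002520, with 44 and 20, had log2 ratios of 0.94 and 0.05. When adjusted these were 0.30 and -0.55, and neither copy was ventral-high. CSLD3 (Csa2G433920, listed as RHD7), with 853 and 176 reads, was 2.27-fold higher [0.95 to 1.43] and 0.48 when adjusted, and its copy Csa2G433910, with 61 and 11 reads, was 2.60-fold higher [0.44 to 2.45] and 0.65 when adjusted.

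CSLB genes, whose product is not established, split by chromosome, a pattern noticed after the values were seen. The 4 measured genes on chromosome 2 had log2 ratios from -1.01 to -0.48. The most abundant, Csa2G416240, had 2557 ventral and 2311 dorsal reads (44.5 and 72.4 RPKM) and a log2 ratio of -0.95 [-1.03 to -0.86], which became -1.42, and so dorsal-high, when adjusted for length. Csa2G416250, with 196 and 185 reads, was 2.01-fold higher dorsally [-1.31 to -0.71], or -1.34 when adjusted, and Csa2G416170, with 32 and 21 reads and a log2 ratio of -0.48 [-1.32 to 0.38], came to -1.01. On chromosome 7, Csa7G041990 had 144 and 10 reads and Csa7G042990 had 83 and 11, and they were 6.75-fold [1.84 to 3.85] and 3.54-fold [0.91 to 2.88] higher ventrally. A further 4 CSLB genes on chromosome 2 were not measured, with 6 and 3, 8 and 0, 1 and 0, and 2 and 0 reads. Their few reads lay mostly in the ventral library, so the split by chromosome is stated for the measured genes only.

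Among 5 measured CSLG genes, CSLG2 (Csa3G141890), with 2122 and 431 reads (39.9 and 14.6 RPKM), was 2.31-fold higher ventrally [1.06 to 1.36] but 0.81 length-adjusted, short of 2-fold. The 4 on chromosome 4 had log2 ratios from -0.57 for Csa4G054280, with 923 and 643 reads [-0.72 to -0.42] and -1.04 when adjusted, to 0.07 for Csa4G053250, with 132 and 59 reads [-0.38 to 0.54]. The 3 CSLE1 genes lay between -0.46 and 0.57, the most abundant being Csa7G200810 with 563 and 197 reads (11.3 and 7.10 RPKM).

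Some members carry a matching name but do not make the glucan or xylan polymers of the wall. RSW3 (Csa2G338840), a glucosidase of glycoprotein folding, had 5430 and 2163 reads (81.5 and 58.5 RPKM) and a log2 ratio of 0.24 [0.16 to 0.31]. RSW9 (Csa4G052630), a dynamin-related protein of membrane traffic, had 4505 and 1130 reads and 0.90, and RSW10 (Csa5G571460), a ribose-5-phosphate isomerase, had 934 and 226 reads and 0.95 [0.74 to 1.17]. IRX4 (Csa7G432010), cinnamoyl-CoA reductase of lignin synthesis, had 1342 and 586 reads and 0.10 [-0.04 to 0.25]. None of these 4 was ventral-high or dorsal-high, though RSW10 reached 1.05 when adjusted for length. COBL6 (Csa3G225840), with 139 and 96 reads, COBL2 (Csa7G009200), with 19 and 10, and KOR2 (Csa2G072990), with 62 and 31, had log2 ratios of -0.56 [-0.94 to -0.17], -0.17 [-1.34 to 1.10] and -0.09 [-0.74 to 0.58].

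Partners of the cellulose synthase complex went different ways. POM2 (Csa6G500680), which ties the complex to microtubules, had 1848 ventral and 236 dorsal reads and was 3.67-fold higher ventrally [1.68 to 2.08], or 0.62 on the log2 scale when adjusted for its length of 6764 bp. POM1 (Csa4G017110), a chitinase-like protein of primary walls, had 5571 and 2422 reads and a log2 ratio of 0.11 [0.04 to 0.18]. Its secondary-wall relative CTL2 (Csa3G166220) had 376 and 247 reads and -0.49 [-0.72 to -0.25]. TED6 (Csa7G320040), which binds the secondary-wall complex in tracheary elements, had 92 and 216 reads and was 5.01-fold higher dorsally [-2.69 to -1.97].

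Regulators of secondary walls, mostly short transcripts, had a median log2 ratio of -0.65 over 14 measured genes. Of these, 1 (7.14%) was ventral-high and 4 (28.6%) dorsal-high, beside 13.6% and 11.1% of all measured genes. With the trend removed the median was -0.31 and the counts 2 and 2. XND1 (Csa2G334550), a repressor of xylem differentiation, had 72 and 315 reads and was 9.33-fold higher dorsally [-3.61 to -2.85]. VND5 (Csa3G034810), an activator of vessel formation, had 16 and 21 reads, 2.80-fold higher dorsally [-2.52 to -0.48]. The VND4 copies were unlike. Csa3G175710, with 32 and 6 reads, was 2.50-fold higher ventrally [0.04 to 2.87]. Csa5G160180, with 77 and 58 reads, had a log2 ratio of -0.68 [-1.19 to -0.17]. The list for xylan decoration and acetylation was taken by name and is mostly the whole TBL family. Which of the TBL genes act on xylan was not examined. The list had a median of -0.22 over 35 measured genes. Of these, 3 (8.57%) were ventral-high and 8 (22.9%) dorsal-high, or 1 and 5 with the trend removed, which gave a median of -0.24. TBL43 (Csa6G421770), with 21 and 71 reads, was 7.21-fold [-3.63 to -2.13] and TBL37 (Csa1G478060), with 973 and 1116 reads, 2.45-fold higher dorsally [-1.42 to -1.16]. TBL39 (Csa6G227020), with 1521 and 324 reads, and RWA3 (Csa1G442350), with 896 and 193, were 2.20-fold [0.96 to 1.32] and 2.18-fold [0.90 to 1.35] higher ventrally, or 1.23 and 0.91 length-adjusted. GXMT1 (Csa2G396200) and GXM3 (Csa1G044930), which methylate the glucuronic acid of xylan, had 141 and 138 and 35 and 41 reads, with log2 ratios of -1.06 and -1.32, or -0.75 and -0.99 length-adjusted, short of 2-fold.

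Genes that supply the sugar substrates had a median log2 ratio of 0.36 over 18 measured genes, with 3 (16.7%) ventral-high and 0 dorsal-high, the first near the share over all genes. With the trend removed the median was 0.15 and the counts 2 and 1. SUS4 (Csa1G597800), a sucrose synthase, which can provide UDP-glucose, had 1624 and 278 reads and was 2.74-fold higher ventrally [1.27 to 1.64], and the epimerase UGE1 (Csa5G155470), with 476 and 98 reads, was 2.28-fold higher [0.87 to 1.52], with length-adjusted values of 0.93 and 1.25. Genes of callose breakdown and plasmodesmata had a median of -0.39 over 14, with 0 ventral-high and 2 (14.3%) dorsal-high, beside 13.6% and 11.1% of all genes. With the trend removed there were 0 of either and the median was -0.36. PDLP7 (Csa5G416260), with 1455 and 1442 reads, and PDLP2 (Csa3G134650), with 299 and 294, were 2.11-fold [-1.19 to -0.97] and 2.10-fold [-1.31 to -0.83] higher dorsally, and both have short transcripts.

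Markers of vascular and epidermal cells were read beside the secondary-wall genes. Of 7 xylem marker genes 5 were measured, with a median log2 ratio of -0.37, or -0.50 length-adjusted. Of the 5, 0 were ventral-high and 2 (40.0%) dorsal-high, beside 13.6% and 11.1% of all measured genes. The xylem peptidase genes XCP1 (Csa7G027790), with 272 and 433 reads, and XCP2 (Csa4G664420), with 408 and 472, were 3.39-fold [-1.99 to -1.54] and 2.47-fold [-1.50 to -1.11] higher dorsally. The 3 copies of the laccase gene LAC17 had log2 ratios from -0.37 to 0.07, while VND7 (Csa7G273640) and a further XCP1 copy (Csa3G131910) had 7 reads and 1 read and 1 read and 0 reads. Summed RPKM of the measured xylem markers was 27.4 ventrally and 58.5 dorsally. Phloem markers, all SEOR1 and PP2-A1 copies, had a median of -0.01 over 17, or -0.28 length-adjusted, with sums of 7180 and 7914 RPKM. Of the 17, 1 (5.88%) was ventral-high and 3 (17.6%) were dorsal-high. PP2-A1 Csa1G703060, with 94 and 7 reads, was 6.30-fold higher ventrally [1.56 to 4.01], and PP2-A1 Csa4G500830, with 1945 and 2721 reads, and SEOR1 Csa2G193380, with 621 and 657, were 2.98-fold [-1.66 to -1.49] and 2.26-fold [-1.33 to -1.01] higher dorsally. Epidermis markers had a median of 0.45 over 4, or 0.20 length-adjusted, with 1 and 1 (25.0% each) and sums of 104 and 72.4 RPKM. ATML1 (Csa1G064670), with 98 and 17 reads, was 2.70-fold higher ventrally [0.68 to 2.27], and PDF2 (Csa6G514870), with 231 and 257, 2.37-fold higher dorsally [-1.51 to -0.98]. The part of xylem content in the secondary-wall values was not tested.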

How the data were processed

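Poly(A) RNA was captured from DNase-treated total RNA and made into strand-specific libraries after fragmentation, per the labels' protocols, with 1 library per side. TopHat2 and edgeR are named, without versions, in the submitters' processing notes. The labels name paired-end and single-end sequencing on different Illumina instruments without saying which library had which. No counting tool, strand setting or genome build is given in the sources used here. The authors deposited whole-number read counts per gene for 20700 genes and RPKM values for 20815 genes, the latter scaled by the authors for length and depth.

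TMM scaling over the whole count table used edgeR 4.0.16 under R 4.3.3. Ratios and exact conditional binomial (Clopper-Pearson) 95% intervals were computed for genes with at least 20 reads (17462), with scipy 1.17.1. They were checked on simulated counts that held counting error alone, without replicate spread or a length trend. That check covers the computation and not the reliability of calls in these libraries. Amplified copies of a molecule cannot be told from separate molecules here, so intervals cover counting error only. A count of 0 allows up to 3 reads, 0.137 CPM in the ventral and 0.252 CPM in the dorsal library. Exonic length was taken from reads divided by RPKM, scaled so that it does not exceed the listed gene length but for rare genes, and the trend was a lowess curve of span 0.3 (statsmodels 0.14.6). Descriptions were matched in any case, which added 4 GLS2 genes.

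Members and lists were chosen with earlier results of these data known. All measured primary-wall, secondary-wall and callose synthase genes are named, and of the other members and homologues those ventral-high or dorsal-high, the most abundant of a family, in the other lists the first 2 in each direction, and a few further genes chosen after their values were seen.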

Additional observations from a re-analysis of the deposited data

How the results depend on the processing

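No paired analysis was possible because there is a single library for each side. Homologues under other symbols, matching of descriptions by case, TMM over genes with at least 20 reads and leaving out RSW and IRX4 genes were added after the data were seen. Scaling by total reads and the ratio of deposited RPKM gave 3 and 2 dorsal-high members in place of 5, primary-wall medians of 1.53 and 1.55 in place of 1.31, and secondary-wall medians of 0.079 and 0.10 in place of -0.14. A minimum of 100 reads gave 3 dorsal-high members, and a minimum of 1 read a CSL median of 0.069. Removal of the length trend gave 11 ventral-high members, medians of -0.040 for all members, 0.79 for primary-wall, -0.28 for callose and -0.049 for CSL genes, and a difference between the wall lists of -1.11. It turned the sign of 14 members, among them the ventral-high GSL6 to -0.12 and GSL12 to -0.040, and CESA1 to -0.39, GSL8 to -0.44, GSL7 (Csa7G236800) to -0.60 and RSW3 to -0.37, and, under another symbol, a CESA3 copy to -0.60. With homologues under other symbols the primary-wall median was 1.03, and with the trend removed as well 0.66, with a difference of -0.87. Those homologues alone had medians of 0.57 for primary-wall and 0.52 for secondary-wall genes. The other values of these results stayed in place under DESeq2 size factors (version 1.42.0), 2-fold with no interval and IRX-L genes counted as secondary-wall. The cause of the length trend was not tested. Depth limits the low genes, 14 members having under 20 reads.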
